A study of Mus musculus with 6 samples.

Results

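Actins polymerise into the thin filaments of muscle and the cytoskeleton, and tropomyosins lie along those filaments and set when myosin can bind. Skeletal muscle uses α-skeletal actin (Acta1), and before birth also α-cardiac actin (Actc1). Smooth muscle has its own α- and γ-actins (Acta2 and Actg2), while the β- and γ-cytoplasmic actins (Actb and Actg1) are found in nearly every cell. Of the tropomyosin genes, Tpm1 and Tpm2 give the main striated muscle proteins and Tpm3 gives the tropomyosin of slow fibers. Tpm4 is mainly cytoskeletal, and Tpm1 and Tpm3 also give short cytoskeletal proteins from a start inside the gene. The 10 genes were taken by name, 6 actins and 4 tropomyosins out of 22939 genes with a RefSeq transcript, and were placed on NCBI Build 37 (mm9).

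The cells were primary myoblasts of wild type C57BL/6 fetal limb muscle (E18.5), at passage 17, which had been turned into myotubes by 48 h in medium with 2% horse serum. Chromatin was immunoprecipitated for Sox6, an HMG-box transcription factor, or for a phosphorylated form of RNA polymerase II (Pol II), and sequenced (ChIP-seq) beside the unprecipitated input DNA. Each of the 3 groups had 2 libraries, and all came from the same kind of cells, with no second genotype or treatment. The labels number the replicates and do not say whether they came from separate cultures. The paper speaks of 2 independent experiments for Sox6 and for Pol II. The spread between these libraries may still be technical. In limma with a trend the variance of each gene is drawn toward that of all genes. A standard error and its p-value thus do not measure the spread of that gene's libraries alone. At the start of Actb the standard error was 0.28, while the inputs held 5 and 19 reads. The Sox6 libraries held 2985437 and 1468604 reads, the Pol II libraries 1538757 and 2762155, and the inputs 21973495 and 24249850. Values are given below for replicate 1 and then replicate 2. Of 6 myotube marker genes all 6 had more Pol II than input over the gene, among them Myog with 53.7 and 59.1 reads per kilobase of gene and per 1000000 reads of the library (RPKM) and Myh3 with 73.3 and 77.8. The 6 fibroblast markers summed to 2.15 and 1.76 RPKM, against 2.99 and 2.85 in input over the gene, where none was called higher and 4 were called lower, and Col1a1 lay at 0.657 and 0.237. Of all genes 39.6% were called higher and 22.3% lower over the gene. At starts 1 of the 6 was called higher, Pdgfra (log2 ratio 2.32, adjusted p = 0.0251, limma), with 1 Pol II read in each replicate, and 1 lower, Dcn (-2.20, adjusted p = 0.0172), beside 45.1% of all genes higher and 20 of 22939 lower.

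The actin and tropomyosin genes spread widely in their Pol II binding. Actc1 and Acta1 lay near the top of all genes, Tpm2, Actb, Acta2, Tpm1 and Actg1 followed, and Tpm3 and Tpm4 were lower again. This order is by reads over the whole gene, and Actg1 stood above Acta2 and Tpm1 when introns alone were counted. Actg2, the enteric smooth muscle actin, was below input. Sox6 peaks found in both replicates lay in or within 20 kb of 3 of the genes, Tpm3, Actc1 and Tpm1, and the peak inside Tpm3 was the strongest.

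The start regions of Acta1, Actc1, Actg1 and Actg2 are shown first because each holds a CArG box, the site of serum response factor. The box lies within the 250 bases before the start of the longest gene model. Only exact matches to CCWWWWWWGG, where W is A or T, were counted. Matches were searched on both strands, and a CArG box occurred in 304 of all 22939 such regions (1.33%). The 4 regions are printed 5′ to 3′ on the strand of the gene, read from mm9, with CArG boxes and the letters TATAAA in capitals.
Acta1 (chr8:126418652-126418901, minus strand): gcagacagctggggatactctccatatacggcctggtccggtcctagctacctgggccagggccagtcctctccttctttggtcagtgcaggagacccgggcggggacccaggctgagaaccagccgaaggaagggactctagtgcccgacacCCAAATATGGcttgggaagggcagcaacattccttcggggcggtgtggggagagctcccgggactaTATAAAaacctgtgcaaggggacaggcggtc
Actc1 (chr2:113878624-113878873, minus strand): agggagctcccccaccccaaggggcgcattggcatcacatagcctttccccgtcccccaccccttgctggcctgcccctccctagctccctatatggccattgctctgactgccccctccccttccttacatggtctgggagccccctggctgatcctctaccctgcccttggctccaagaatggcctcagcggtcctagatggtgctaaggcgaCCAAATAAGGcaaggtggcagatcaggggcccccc
Actg1 (chr11:120209857-120210106, minus strand): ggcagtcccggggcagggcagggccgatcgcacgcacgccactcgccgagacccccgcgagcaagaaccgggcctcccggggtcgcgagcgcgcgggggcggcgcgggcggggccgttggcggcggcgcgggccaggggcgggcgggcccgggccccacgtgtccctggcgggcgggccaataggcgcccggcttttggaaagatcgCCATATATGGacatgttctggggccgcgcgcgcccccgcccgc
Actg2 (chr6:83486260-83486509, minus strand): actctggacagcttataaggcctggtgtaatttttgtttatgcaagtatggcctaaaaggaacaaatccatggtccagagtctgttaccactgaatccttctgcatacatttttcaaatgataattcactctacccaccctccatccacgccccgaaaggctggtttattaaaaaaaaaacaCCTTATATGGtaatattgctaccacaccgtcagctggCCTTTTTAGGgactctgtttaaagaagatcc
Counted back from the start, the CArG box began at base -97 in Acta1, -35 in Actc1 and -43 in Actg1, and at -68 and -31 in Actg2. Of the 4, Acta1 alone also held TATAAA, which begins at -31 and occurs in 11.8% of all regions. Acta2 and the 4 tropomyosin genes had no exact match in this window, which says only that this pattern is not there. Near matches were not counted. The Acta2 window holds ccctatatgg and ccttgtttgg, which each differ from the pattern in a single base. Such stretches also lie in the windows of Tpm1 (ccatatatag) and Tpm3 (ccatgttagg). The printed regions hold some too, which are not in capitals: ccatatacgg in Acta1, ccctatatgg and ccttacatgg in Actc1, and gcttataagg in Actg2. These are examples and not a full search. The starts are those of the gene models, and the RefSeq start, found again by its sequence, lay 24 and 37 bases upstream of the model in Acta1 and Acta2, 12 and 47 bases downstream in Actc1 and Actg1, and 193, 41 and 29 bases downstream in Tpm1, Tpm2 and Tpm4. In Tpm1 most of the window thus lies further than 250 bases from the RefSeq start, while no RefSeq promoter was used here for Actg2.

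The 3 common Sox6 peaks and the Sox6 peak nearest to a start among the 10 genes, that of Acta2, are printed next. They run 100 bases to each side of the centre of the peak on the plus strand of mm9, and capitals mark the Sox letters ACAAAG and ACAATG and the E-box letters CAGCTG and CAGGTG, in either orientation.
Tpm3, common peak (chr3:89881251-89881451): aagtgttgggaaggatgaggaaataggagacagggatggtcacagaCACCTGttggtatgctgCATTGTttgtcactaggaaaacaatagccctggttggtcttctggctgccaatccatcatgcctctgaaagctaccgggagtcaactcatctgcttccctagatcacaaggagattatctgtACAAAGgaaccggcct
Actc1, common peak (chr2:113885991-113886191): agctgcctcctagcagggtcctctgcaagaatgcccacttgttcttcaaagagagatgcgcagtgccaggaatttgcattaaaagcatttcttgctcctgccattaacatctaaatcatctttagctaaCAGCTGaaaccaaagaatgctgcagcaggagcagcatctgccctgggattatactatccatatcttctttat
Tpm1, common peak (chr9:66860251-66860451): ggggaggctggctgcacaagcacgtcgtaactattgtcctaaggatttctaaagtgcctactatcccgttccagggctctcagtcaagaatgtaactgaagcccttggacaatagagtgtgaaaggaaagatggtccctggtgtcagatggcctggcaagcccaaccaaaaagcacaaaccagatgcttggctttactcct
Acta2, peak of replicate 1 (chr19:34329971-34330171): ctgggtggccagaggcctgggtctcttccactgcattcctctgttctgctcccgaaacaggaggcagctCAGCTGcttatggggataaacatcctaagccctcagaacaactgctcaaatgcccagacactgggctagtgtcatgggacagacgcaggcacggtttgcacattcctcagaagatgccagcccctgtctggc
The Tpm3 site held each of the Sox words once, and CAGGTG once. The Actc1 and Acta2 stretches each held a CAGCTG and neither Sox word, and that of Tpm1 held none of the 4 words. For Actc1 this depends on the centre, since the peak of replicate 1 at the same site (chr2:113886052-113886331) reaches further and holds an ACAATG from 47 to 52 bases after its own centre. Among all 1066 common peaks 58.4% held a Sox word and 66.5% an E-box in a stretch of this length. No overlap occurs between these motifs in the 4 stretches.

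Reads were counted by their 5′ end over the longest model of each gene, from start to end. Actc1 (chr2:113873018-113878623) had the highest level, with 99.5 ± 0.828 RPKM of Pol II (SD, n = 2), from 863 and 1531 reads, against 1.04 and 1.02 RPKM of input. It ranked at place 3 of 22939 genes by the mean of both replicates. Acta1 (chr8:126415669-126418651) followed with 66.7 and 69.2 RPKM, at place 9. The replicates of each gene lay close together, and the ranges of the 2 genes did not overlap.

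**Figure D1:**
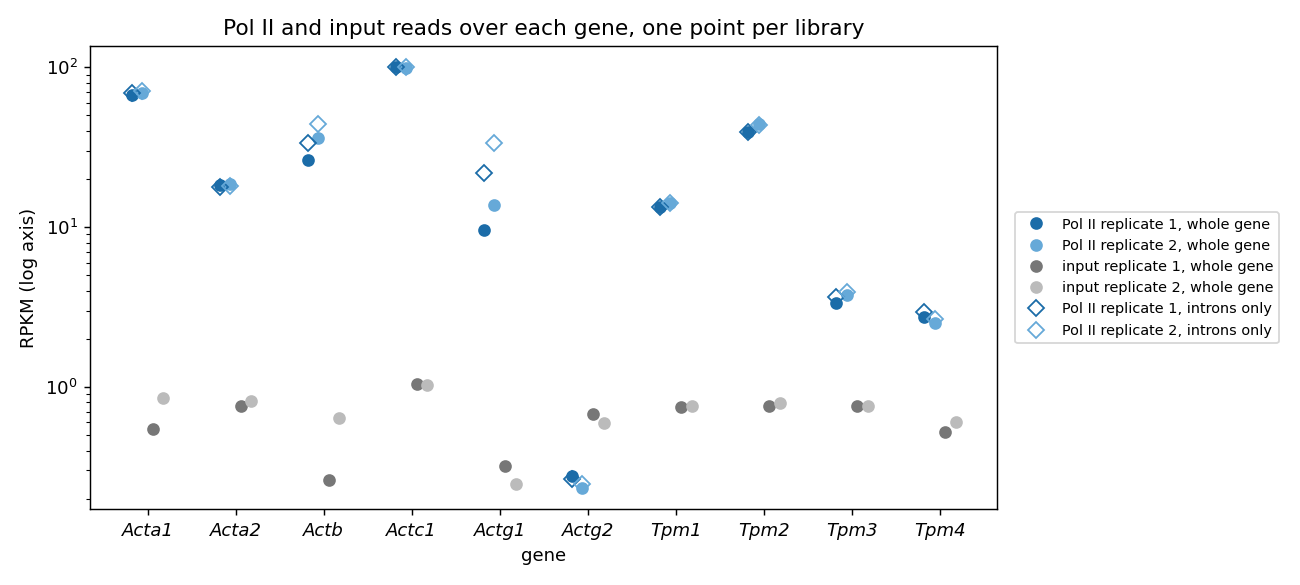
Pol II and input reads over each gene in RPKM, on a log axis, with 1 point per library, and open diamonds for Pol II over the introns alone. Actc1 and Acta1 are highest, Actg2 is the only gene whose Pol II points lie below its input points, and the introns of Actg1 and Actb lie above their whole genes.

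Tpm2 (chr4:43527583-43536467), which encodes β-tropomyosin, had 39.5 and 43.9 RPKM of Pol II, and Actb (chr5:143664794-143668433) had 26.4 and 35.8. The ranges of these 2 genes did not overlap. Acta2 (chr19:34315580-34329826) lay at 18.3 and 18.7 RPKM, below Actb in both replicates. Its input was at 0.760 and 0.816 RPKM. Acta2 is best known from vascular smooth muscle, and Myh11, the myosin that defines that tissue, lay at 0.376 and 0.277 RPKM, below its input of 0.448 and 0.469. Smtn, with 6.33 and 5.90 RPKM, and Tagln, with 2.32 and 2.08, both genes of smooth muscle, were called higher. The 4 smooth muscle markers summed to 9.34 and 8.54 RPKM of Pol II against 1.90 and 2.23 of input, and none was at 0. Over the gene 2 of the 4 were called higher and 1 lower, beside 39.6% of all genes higher and 22.3% lower. A link of these markers to the level of Acta2 was not tested.

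Tpm1 (chr9:66870397-66897213), the gene of α-tropomyosin, had 13.3 and 14.2 RPKM. The level of Actg1 (chr11:120207004-120209856), 9.57 and 13.7 RPKM, overlapped that of Tpm1, and these were the only neighbours in the order whose replicates overlapped. Tpm3 (chr3:89876573-89904824) had 3.36 and 3.74 RPKM and Tpm4 (chr8:74659158-74677041) 2.73 and 2.51, both above an input of 0.519 to 0.765. Set against Actb in the same library, Actc1 was at 379% and 276%, Tpm2 at 149.5% and 123%, Tpm3 at 12.7% and 10.4% and Tpm4 at 10.3% and 7.01%.

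Actg2 (chr6:83462899-83486259) was the exception. It had 10 and 15 reads of Pol II over 23.4 kb, which is 0.278 and 0.233 RPKM, against 0.680 and 0.595 RPKM in input. No Pol II read fell in the window around its start in either replicate, which allows up to 1.95 and 1.09 reads per 1000000 reads of the library (RPM), above the 0.910 and 0.701 RPM of input. These limits are for each library alone and cover counting error only. The log2 ratio at the start of Actg2 was not called (adjusted p = 0.0827, limma), but it was called lower with a pseudocount equal in RPM (adjusted p = 0.0162) and without Pol II replicate 1 (adjusted p = 0.00821), and with no reads in either library its size depends on the reads added.

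In the fit over gene bodies, 9 of the 10 genes had more Pol II than input and Actg2 had less (limma with a trend, Benjamini-Hochberg adjustment over 22939 genes). Of all genes 39.6% were called higher and 22.3% lower. The median log2 ratio of Pol II to input was 4.94 in the 10 genes and 0.36 in all genes. Over the gene the ratio was 6.62 ± 0.20 (SE) in Acta1, 6.59 ± 0.10 in Actc1 and 6.22 ± 0.34 in Actb, and Actg2 had -1.27 ± 0.22. Actb had 5.59 without input replicate 1 and 6.84 without input replicate 2. At start windows, 500 bp to each side of the start, 9 of the 10 were called higher, where 45.1% of all genes were. The median log2 ratio at starts was 5.33 in the 10 genes and 1.44 in all genes. With a pseudocount equal in RPM these medians were 4.94 and 0.26, and 8 of the 10 and 29.2% of all genes were called higher. Over gene bodies that setting gave medians of 4.86 and -0.01. The level of all genes against input thus depends on the reads added. With 0.5 reads added, Actb had 6.38 ± 0.28 at its start (5.54 without input replicate 1 and 7.22 without input replicate 2). Tpm2 had 6.24 ± 0.33 at its start, and Tpm3 had 1.31 ± 0.52 with an adjusted p of 0.0272 in limma. The calls over gene bodies held in all 12 alternatives. Of those at starts only that of Tpm3 was lost, in 6 of 13, with the lowest value in a window of 250 bp (0.30, adjusted p = 0.772, limma). Without input replicate 1 or 2 it had 1.68 and 0.94 (adjusted p = 0.0758 and 0.311). Wherever a library is left out, 1 sample stands for its group and is assumed to vary like the 2 of the other group. Scaling to bins without peaks moved the median of all genes by 0.49 at starts and over bodies. On that scale Actg2 was at -0.77 over its body, still called lower.

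**Figure D2:**
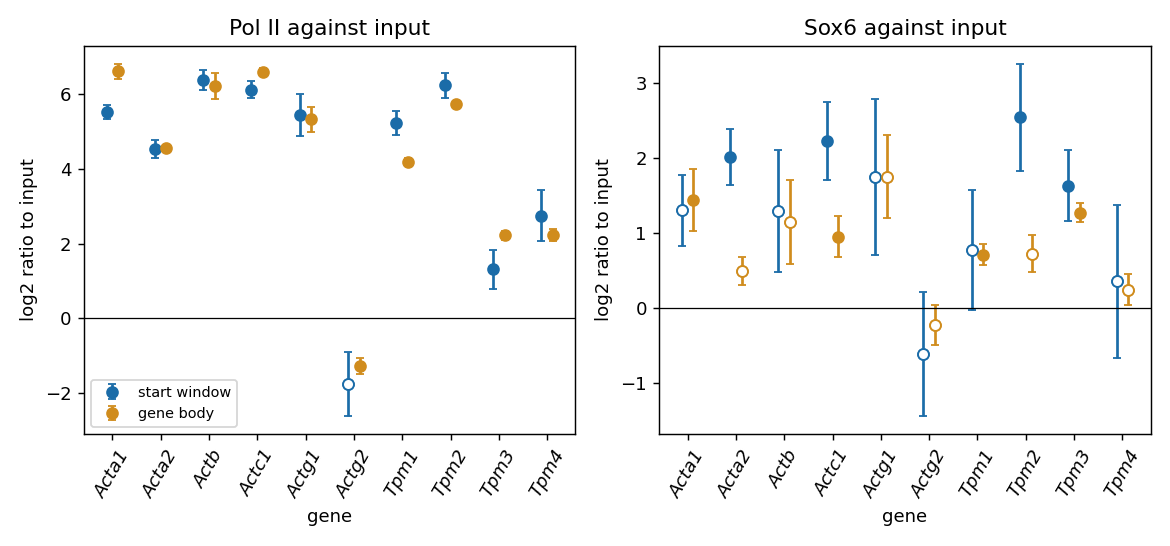
Log2 ratio to input of each gene with its standard error, for Pol II (left) and Sox6 (right), from 2 libraries a group; filled points have an adjusted p under 0.05 and open points do not. The 2 panels share the input libraries, and Actg2 is the only gene below 0 for Pol II.

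Reads that map to more than 1 place are absent from the files, and the share of repeated sequence differed between these genes. Its part in the level of single genes was not tested. In Actg1, 97.3% of the stretches of 32 bases that lie in exons occur elsewhere in the genome too, against 0.0% of those in introns. The input density in the exons of Actg1 was 8.15% and 6.15% of that in the introns, where the median of all genes compared was 87.7% and 93.2%. In Tpm3, 70.5% of exon stretches occur elsewhere and input in exons was at 30.4% and 39.1% of introns. The corresponding share was 36.8% in Actb and 33.8% in Tpm4, and at most 4.88% in the other 6 genes. Input in exons did not follow this share in every gene or library. It was at 35.4% and 76.8% of introns in Acta1, 47.7% and 82.4% in Tpm2, 44.8% and 72.2% in Actb, and 34.2% and 126% in Tpm4. Reads were 36 bases long in input replicate 1 and 39 bases in input replicate 2 and all ChIP libraries. All are longer than the 32 bases searched, and a longer stretch can be unique where 32 bases are not. The part of read length was not tested.

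**Figure D3:**
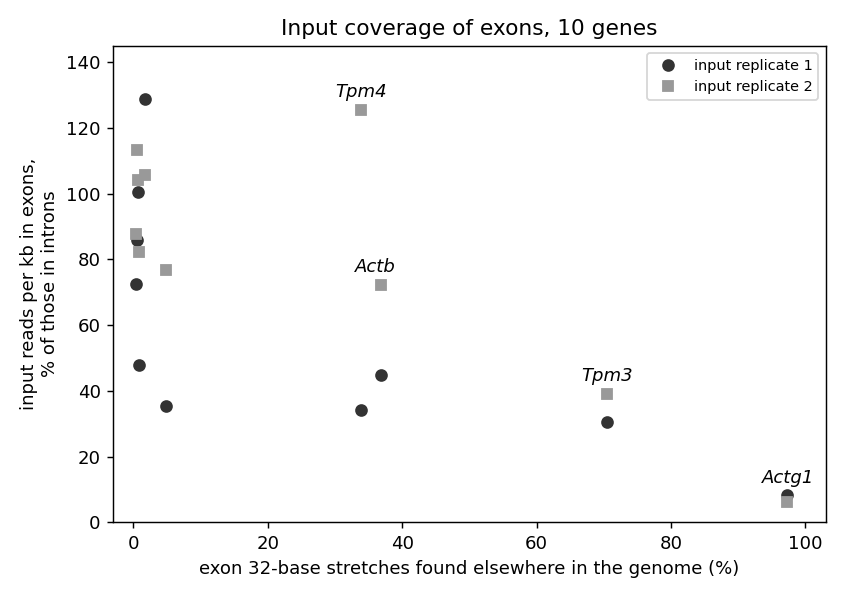
Share of exon stretches of 32 bases found elsewhere in the genome (x axis) against the density of input reads in exons as a percent of that in introns (y axis), for the 10 genes and both inputs. Actg1 lies at the far right and lowest, at 8.15% and 6.15%.

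Counted over introns alone, Actg1 had 21.6 and 33.8 RPKM of Pol II, more than 2 times its level over the whole gene in both replicates, and it moved from place 7 to place 5 of the 10. Actb moved from 26.4 and 35.8 to 33.6 and 44.2 RPKM and then overlapped with Tpm2 (39.6 and 43.8) and with Actg1. Tpm1, with 13.3 and 14.2 RPKM over introns, kept its level and fell from place 6 to 7. This count was chosen after the data were seen. The deposited Pol II peaks differed between replicates in Actg1 and Tpm3. Actg1 had 3 peaks over 283 bp in replicate 1 and 4 peaks over 3824 bp in replicate 2, and Tpm3 had none in replicate 1 and 5 in replicate 2. Peaks of both replicates lay in 8 of the 10 genes, all but Actg2 and Tpm3, where 10.5% of all genes had them.

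Pol II was then compared along the genes. The difference between the start window and the rest of the gene, each relative to input, was called in none of the 10 genes by limma, with 2 of them at an unadjusted p under 0.05, while 19.5% of the 19633 genes of at least 2000 bp had more at the start. That background was 0 genes by limma without Pol II replicate 1, or without Pol II replicate 2 (7715 and 8796 genes at an unadjusted p under 0.05), and 342 and 237 genes without input replicate 1 and 2. In Acta1 the difference was -1.23 ± 0.31 on the log2 scale, with an adjusted p of 0.0518 in limma, and it was called lower at the start with 10 or more reads (adjusted p = 0.0122) and with 2 reads added (adjusted p = 0.0203), while its value was -0.53 in a window of 250 bp (adjusted p = 0.178). Tpm1 had 1.06 ± 0.40 in the other direction, with an adjusted p of 0.117. Pol II also ran past the annotated end. In the 2 kb after the end it was at 76.7 and 73.3 RPKM at Tpm2, above the gene itself, and at 43.5 and 44.7 at Actb. Acta1 had 36.4 and 35.3 there and Actc1 57.5 and 49.6. Actg1 had 42.9 and 47.6 after its end, against 9.57 and 13.7 over the gene. Reads cannot be split between genes that lie close together. Car9, on the other strand, ends 982 bp past the end of Tpm2, and Stambpl1 ends 757 bp past that of Acta2. At Actg1 the gene 0610009L18Rik, on the other strand with 9.31 and 11.2 RPKM of Pol II, begins 136 bp before the start, inside the start window counted for Actg1.

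Tpm1 and Tpm3 have annotated starts far apart, and the choice between them decides whether a long or a short tropomyosin is made. In Tpm1 the upstream start (chr9, 66897213) and the start 5444 bp downstream of it both had Pol II. The upstream window held 18.8 and 21.4 RPM and the downstream one 12.3 and 14.5, against at most 0.728 RPM of input in either. The downstream window lies inside the gene as read from the upstream start, and Pol II stood at 20.1 and 21.2 RPKM between the starts. Reads in the downstream window thus cannot be split between the 2 starts. In Tpm3 the upstream start (chr3, 89876571) held 1.95 and 2.17 RPM, from 3 and 6 reads, against 1.18 and 0.701 RPM of input. Its downstream start, 6891 bp further, held 3.90 and 6.15 RPM, against 0.501 and 0.907 of input. The difference, upstream minus downstream and relative to input, was 0.93 ± 0.41 in Tpm1 and -1.58 ± 0.68 in Tpm3 on the log2 scale (adjusted p = 0.28 and 0.275 over 4148 genes in limma). Tpm3 had -0.80 without input replicate 1, -2.37 without input replicate 2 and -3.18 in a window of 250 bp, where it was not called either. Only 6 of these genes (0.145%) were called, and neither Tpm1 nor Tpm3 was at an unadjusted p under 0.05. A fit limited to the 815 genes with at least 20 Pol II reads at the starts, added after the data were seen, gave Tpm3 an adjusted p of 0.0498 and Tpm1 0.116, with 316 genes called. Fisher's exact test in each replicate, two-sided and adjusted over the same 4148 genes, gave 0.527 and 0.794 for Tpm3. The call for Tpm3 was thus made under that filter alone.

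The bodies of the 2 genes had the same order. They hold part of the reads of the start windows, so this is not a separate view of the starts. Reads after the downstream start also cannot be split between the starts. Between its starts Tpm1 had 20.1 and 21.2 RPKM of Pol II, and 11.6 and 12.4 from the downstream start to the end. Tpm3 had 2.45 and 2.21 RPKM between its starts and 3.65 and 4.24 after the downstream start. As a ratio to input in the same replicate this was 2.46 and 2.33 between the starts of Tpm3 and 5.34 and 6.00 after the downstream start. These ratios were not tested.

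**Figure D4:**
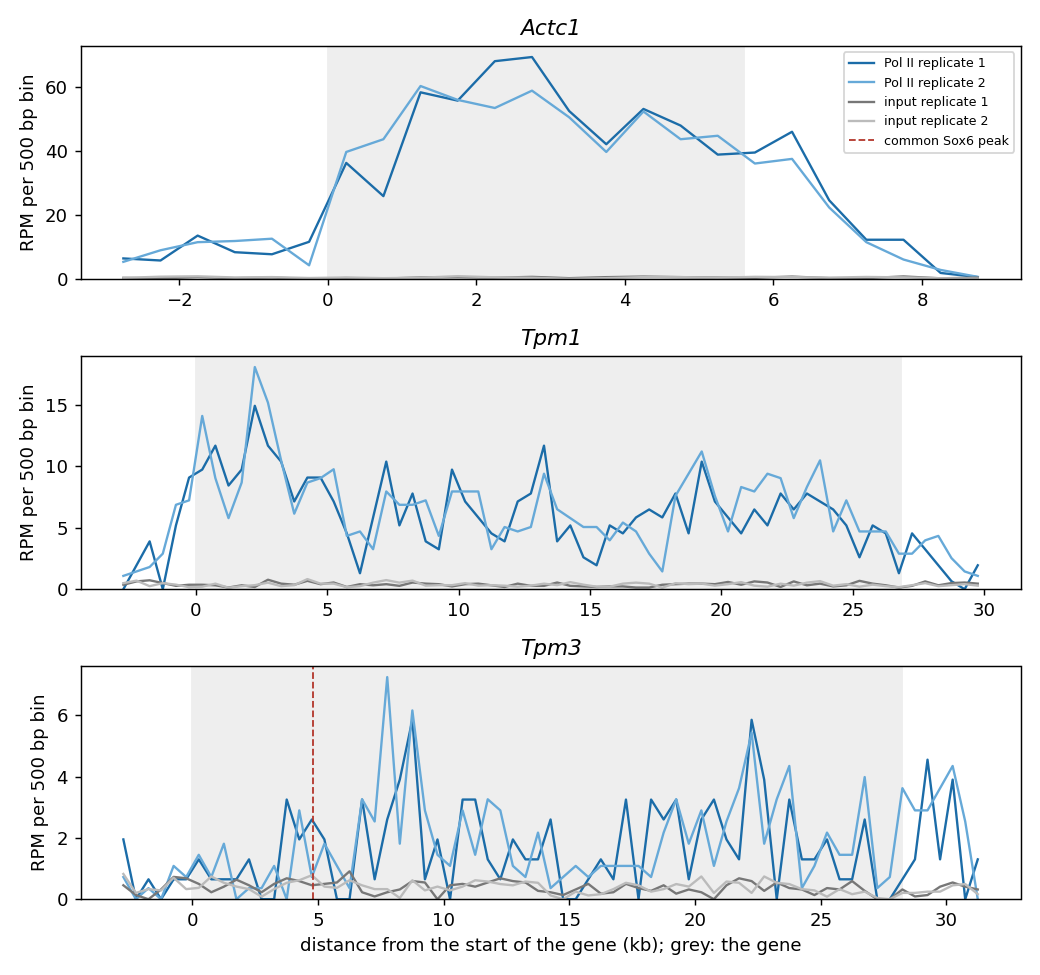
Pol II and input reads in bins of 500 bp along Actc1, Tpm1 and Tpm3, in RPM against distance from the start, with the gene in grey and the common Sox6 peak of Tpm3 as a dashed line. Pol II fills Actc1 and runs past its end, and in Tpm3 the highest bins lie after the Sox6 peak.

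Sox6 peaks common to both replicates were looked for in each gene and within 20 kb of it. Of the 10 genes 3 had such a peak, Tpm3, Actc1 and Tpm1, with 1 each, where 4.33% of all genes had one. Actb, Actg1, Actg2 and Tpm4 had no Sox6 peak of either replicate, and Acta1, Acta2 and Tpm2 had peaks of single replicates only. Among all genes 11.5% had a peak of either replicate in or within 20 kb. Of the 8 peaks of replicate 1 and 6 of replicate 2 in this range, 11 had more Sox6 than input in the reads of the other replicate (exact two-sided binomial test, adjusted over all peaks of the list). This count pools both lists, and the 3 common sites stand in each of them, so they were already called in the other replicate. Within the deposited interval 5 passed. In the whole lists the share was 67.0% for peaks of replicate 1 and 84.4% for those of replicate 2. Each such test sets 1 library against 1 input and covers counting error only.

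The common peak of Tpm3 (chr3:89881262-89881441) lay in intron 2, 4778 bp after the upstream start and 2111 bp before the downstream one. Its window of 450 bp held 52 and 34 Sox6 reads, or 17.4 and 23.2 RPM, against 0.319 and 0.742 RPM of input. The median over all common peaks was 5.02 and 6.81 RPM of Sox6. The log2 ratio of Sox6 to input was 5.32 ± 0.44, at place 28 of 1066 peaks. Each replicate alone also had the peak. Replicate 2 held 31.2 times its input share at the peak of replicate 1 (adjusted p = 1.12e-27, exact binomial), and replicate 1 held 53.6 times at the peak of replicate 2. In the same window Pol II had 4 and 2 reads, a log2 ratio of 1.67 ± 0.67 with an adjusted p of 0.0238 in limma, near the median of 1.79 over all common peaks, where 58.4% were called higher. That call was lost without Pol II replicate 1 (0.83, adjusted p = 0.326), without input replicate 1 (1.09, adjusted p = 0.458), without input replicate 2 (2.25, adjusted p = 0.195) and with a pseudocount equal in RPM (1.33, adjusted p = 0.214). A further peak of replicate 2 lay 901 bp from the peak of replicate 1 in the same intron, with 8 and 7 Sox6 reads and an adjusted p of 0.00395 in the reads of replicate 1 (exact binomial).

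The common peak of Actc1 (chr2:113886022-113886161) lay 7468 bp upstream of its start, in intron 2 of C130080G10Rik, a neighbouring gene on the other strand named here after its values were seen. It held 22 and 13 Sox6 reads, or 7.37 and 8.85 RPM, against 0.956 and 0.412 RPM of input, and a log2 ratio of 3.68 ± 0.45 at place 443. Pol II was also dense there, with 11.1 and 6.52 RPM and a log2 ratio of 3.75 ± 0.43, at place 80 of 1066. Without input replicate 1 and 2 these ratios were 4.26 and 3.09 for Sox6 and 4.33 and 3.16 for Pol II. C130080G10Rik itself had 10.2 and 9.39 RPKM of Pol II. A peak of replicate 2 lay 378 bp upstream of the start (chr2:113878912-113879091), with 12 Sox6 reads in that replicate and 3 in replicate 1, where the exact binomial test gave an adjusted p of 0.0316. It lies 283 bp after another annotated start of Actc1 (113879284), whose window held 17.5 and 19.9 RPM of Pol II.

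At Tpm1 the common peak (chr9:66860282-66860421) lay 10046 bp past the end of the gene, and 36862 bp from its start. It held 10 and 9 Sox6 reads, or 3.35 and 6.13 RPM, and 1 Pol II read in each replicate. The log2 ratio of Sox6 was 3.62 ± 0.53, close to the median of 3.52 over all common peaks. A second common peak, 33406 bp past the end and nearer to Lactb than to Tpm1, held 26 and 11 Sox6 reads. A peak of replicate 1 alone lay 10788 bp upstream of the start, where replicate 2 had 4 reads (adjusted p = 0.0319, exact binomial). Sox6 against input was called at all 3 common peaks within 20 kb, as at 96.7% of all common peaks, which were found on these same reads.

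**Figure D5:**
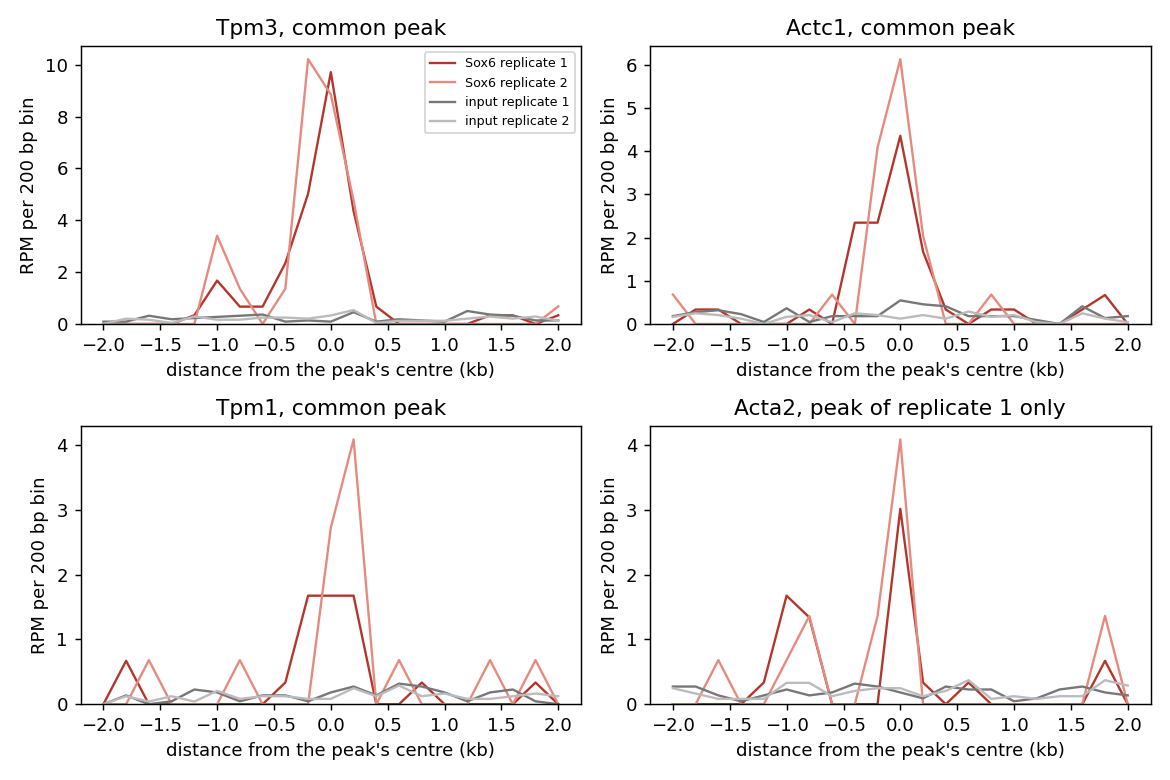
Sox6 and input reads in bins of 200 bp within 2 kb of 4 Sox6 peaks, in RPM against distance from the centre, positive in the direction of transcription of the named gene. Both Sox6 libraries rise at the same place in all 4 panels, highest at Tpm3. The panels of Tpm3, Actc1 and Tpm1 show common peaks, which were chosen because both libraries had them. A smaller rise stands about 1 kb upstream at Tpm3 and Acta2, and that of Acta2, with 9 and 3 reads, did not pass in replicate 2.

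Among the peaks of 1 replicate, that at 245 bp before the start of Acta2 (chr19:34330052-34330091) held 10 reads in replicate 1 and 7 in replicate 2, or 3.35 and 4.77 RPM, against 0.455 and 0.454 RPM of input. Replicate 2 had 10.5 times its input share there (adjusted p = 0.000119, exact binomial), although no peak was called in it. Another peak 1155 bp before the start had 9 and 3 reads and did not pass in replicate 2 (adjusted p = 0.131). At Acta1 a peak of replicate 1 lay 2398 bp past the end of the gene, with 10 and 3 reads (adjusted p = 0.104). At Tpm2 a peak of each replicate lay 121 bp apart and past the end of the gene, in introns 7 and 8 of Car9. The peak of replicate 2 had 6 and 8 Sox6 reads and passed in replicate 1 (adjusted p = 0.0021), and that of replicate 1 had 3 and 2 and did not pass in replicate 2 (adjusted p = 0.225). Pol II was at 27.9 and 31.1 RPM in the window of the former. All these p are of the exact binomial test.

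Counted over start windows and whole genes, without regard to peaks, Sox6 differed less from input. At starts 4 of the 10 genes were called higher, Tpm2, Actc1, Acta2 and Tpm3, where 6.34% of all genes were, and the median log2 ratio was 1.47 in the 10 genes and 0.81 in all genes. Acta2 had 11 and 7 Sox6 reads at its start, or 3.68 and 4.77 RPM, against 1.05 and 1.11 RPM of input. Its log2 ratio was 2.01 ± 0.37, and the window of the peak inside held 10 and 7 of these reads. Tpm2 had 2.54 ± 0.72, from 3 and 5 reads, with 3.38 and 1.71 without Sox6 replicate 1 and 2. Over gene bodies Tpm3 had 157 and 75 reads and a log2 ratio of 1.27 ± 0.13, and Acta1 (1.44 ± 0.41), Actc1 (0.95 ± 0.27) and Tpm1 (0.71 ± 0.14) were called too, where 9.91% of all genes were. In Tpm3 the Sox6 level was 4.18 and 4.74 RPKM between the starts, the part with the peak, and 1.11 and 0.861 after the downstream start. With a pseudocount equal in RPM none of these genes was called by limma, with 4 starts and 7 bodies at an unadjusted p under 0.05. The median log2 ratio at starts was then 0.98 in the 10 genes and -0.11 in all genes. Leaving out input replicate 1, or input replicate 2, took all 4 start calls (3 at an unadjusted p under 0.05 in each case) and all body calls but that of Tpm3. Both the Sox6 and the Pol II comparison use the same input libraries.

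Other genes of the thin filament and of actin turnover were taken from lists by name. Of 8 troponin genes 7 had more Pol II than input over the gene, with a median log2 ratio of 4.67. Of all genes 39.6% were called higher, with a median of 0.36. Of 12 genes for the ends and the length of the thin filament 10 were higher and 1 lower, with a median of 1.4. Nebulin (Neb), which spans the filament, had 9.68 and 9.85 RPKM, and Tmod4, the cap of its pointed end in fast muscle, 1.38 and 1.93. All 13 genes of actin turnover were higher, with a median of 2.22, and Cfl2, the muscle cofilin, had 11.0 and 14.1 RPKM. Common Sox6 peaks lay in or within 20 kb of 5 of the 8 troponin genes, 5 of the 12 genes of the filament's ends and 2 of the 13 of turnover, beside 4.33% of all genes. The troponin genes Tnnt1 and Tnni3, with 1 common peak each, lie within 20 kb of each other on chromosome 7. A single site can thus count for both. Serum response factor, which binds CArG boxes, acts with myocardin and its relatives. Srf had 3.62 and 2.72 RPKM and its cofactor gene Mkl1 1.84 and 1.88, both called higher than input. Myocd, the cofactor of heart and smooth muscle, had 0.181 and 0.198 RPKM against 0.475 and 0.475 in input and was called lower. Mkl2, another relative of myocardin, had 0.586 and 0.671 RPKM and was not called over the gene (log2 ratio -0.01, adjusted p = 0.963, limma), but it was called higher at its start (3.38, adjusted p = 2.39e-05), where Mkl1 was not (1.11, adjusted p = 0.259). None of these 4 genes had a common Sox6 peak within 20 kb.

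Sox6 itself was called higher than input over 4 of the 8 troponin genes, 6 of the 12 genes of the filament's ends and 3 of the 13 of turnover, beside 9.91% of all genes, and with a pseudocount equal in RPM limma called none of the 22939 genes higher (5390 in either direction at an unadjusted p under 0.05). Of markers of other tissues, 1 of 4 heart markers was called higher for Pol II over the gene, the atrial gene Nppa with 2.39 and 2.93 RPKM, and 0 of 3 liver and 0 of 3 endothelial markers were by limma, of which 1 and 3 were called lower there, beside 39.6% of all genes higher and 22.3% lower. At starts 1 liver marker was called higher, Apoa1 (log2 ratio 2.08, adjusted p = 0.0457, limma), with 0 and 4 Pol II reads, beside 45.1% of all genes. Both muscle progenitor markers were called higher.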

How the data were processed

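Per the study's methods, the authors mapped single-end reads with Bowtie (0.12.5) to NCBI Build 37, kept reads that mapped to 1 place, and ran SISSRs (1.4), with fragments of 450 bp and an input of each ChIP experiment as background, to find peaks. Peaks of both replicates within 50 bp of each other were taken as common. The deposited files hold read positions and peak intervals, which carry no normalization. Here each read was counted once by its 5′ end over the longest GENCODE (M1) model of each gene with a RefSeq transcript. That model need not itself be a RefSeq one. Reads were also counted over 500 bp on each side of its start and over 450 bp at the centre of each peak. Counts were divided by the reads of the library (RPM) and the length (RPKM). Log2 RPM with 0.5 reads added was tested by limma (3.58.1) with a trend, over all genes or peaks, with Benjamini-Hochberg adjustment and a threshold of 0.05. Each fit used the 2 libraries of a ChIP and the 2 inputs. The script was tested on simulated data. Peaks of 1 replicate were tested in the other by an exact binomial test.

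The members and the gene lists were chosen with earlier results of these data known. All 10 genes are described, other genes were named from the lists, and neighbouring genes were named after their values were seen. Alternatives changed the reads added, scaling, filters, windows, 5′ ends, repeated positions, the pairing of replicates and each library. Added after the data were seen were a filter on Pol II reads at starts, Fisher's exact test there, and the count over introns. One start region is not reported here.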

Additional observations from a re-analysis of the deposited data

How the results depend on the processing

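Each group had 2 libraries, and start windows of the longest models of the 10 genes held at most 11 Sox6 reads. A fit without 1 library leaves 1 sample in its group, which is assumed to vary like the other group's. Of 730 values of single genes or peaks under an alternative, 635 kept direction and side of the threshold, 34 came to pass it, 40 no longer did and 21 reversed. The 9 higher calls and 1 lower call for Pol II over gene bodies held under every alternative run. The causes of the changes below were not tested.

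For Sox6 at starts the 4 calls became 9 with 2 reads added, 0 with a pseudocount equal in RPM, 2 in a window of 1000 bp and 0 to 7 without 1 library. All genes called went from 1454 to 16430, 0 and 738 in the same settings, to 419 with 10 or more reads, to 4011 in a window of 250 bp and to 28 to 10056 without 1 library. Over bodies the 4 calls became 7, 0, 2 with 10 or more reads, 2 after the first 500 bp and 1 to 8 without 1 library. All genes called there went from 2273 to 6483, 0, 1129, 1021 and 153 to 8374. For Pol II at starts all genes called went from 10350 to 19954 with 2 reads added and 6689 with a pseudocount equal in RPM, where 4619 were called lower, and over bodies scaling to bins without peaks gave 11413 higher and 2857 lower genes against 9093 and 5106. Pol II at common peaks was called at 2 of 3, at 1 with a pseudocount equal in RPM and at 1 to 2 without 1 library, and at 623 of all, 951 with 2 reads added and 302 to 617 without 1 library. For the start against the rest all genes called went from 3822 to 12657 with 2 reads added, 1122 with a pseudocount equal in RPM and 0 to 342 without 1 library. For alternative starts the 6 genes called became 0 with a pseudocount equal in RPM or 10 or more reads, 14 in a window of 250 bp, 316 with 20 or more Pol II reads (1 of them among the 10 genes, against 0), 0 to 343 without 1 library, and 59 and 95 by Fisher's exact test in replicate 1 and 2. Of 14 peaks in the lists of the 2 replicates, which both hold the 3 common sites, 11 passed in the other replicate, and 5 within the deposited interval.

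Log2 values that reversed, with the range without 1 library where that reversed them, were these. For Pol II at its start Actg2 had 0.13 with 2 reads added. For Sox6 at starts Actg2 had 0.61 with 2 reads added, 0.21 in a window of 250 bp and -1.27 to 0.03 without 1 library, Tpm4 had -0.97 with a pseudocount equal in RPM and -0.32 to 1.01 without 1 library, and Tpm1 had -0.11 to 1.65 without 1 library. For Sox6 over its body Actg2 had -0.69 to 0.24 without 1 library. Between its starts Actg2 had 0.01 in a window of 250 bp and -0.37 to 0.00 without 1 library. For the start against the rest Actg1 had -0.06 with 2 reads added, -0.21 with a pseudocount equal in RPM and -0.81 to 1.20 without 1 library, and Actg2 had 1.20 with 2 reads added and 0.68 in a window of 250 bp. Acta2 had 0.00 with 5′ ends moved by 75 bp, 0.69 in a window of 250 bp and -0.17 to 0.12 without 1 library, and Tpm2 had -0.20 in a window of 250 bp. Without 1 library Tpm4 had -0.03 to 1.11 and Actc1 -1.0 to 0.03.

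The labels share replicate numbers without stating a pairing, and the methods name an input for each ChIP experiment without saying which library it was. Differences of replicate 1 and 2 over gene bodies had a correlation across genes of 0.018 between Pol II and input and 0.11 between Sox6 and input. With the replicate block, genes called for Sox6 over bodies went from 2273 to 3800 (6 of the 10 genes against 4, with Actg1 and Tpm2 added), the 4 starts called for Sox6 became 5 (with Acta1 added), and genes called at alternative starts went from 6 to 0. It changed no other call of the 10 genes.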
